A study of Mus musculus with 22 samples.

Results

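The 10 genes followed here carry the known signals between the mouse oocyte and the granulosa cells that surround it: the growth factors Gdf9, Bmp15, Bmp6 and Fgf8, the receptor Kit and its ligand Kitl, the connexins Gja4 and Gja1, and the natriuretic peptide Nppc with its receptor Npr2. They were chosen by symbol for this role, make up 10 of 22592 symbols, and had a row in all 4 expression tables. Levels are given as FPKM, a count of fragments scaled to transcript length and to the size of the library, so that genes of different length can be compared.

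The RNA-seq libraries, made by the Smart-seq2 protocol, number 22. Apart from the Dnmt3l pair described last, they follow oocytes and embryos labelled control or knockout for Setd2, the gene of a histone H3 methyltransferase. Growing oocytes of 20 to 30 µm were taken on postnatal day 7 (P7) and are labelled Setd2+/- for controls and Setd2-/- for knockouts, so the controls carry 1 mutant allele. Full-grown oocytes were taken 48 h after PMSG, the hormone that drives follicle growth, and zygotes 30 h after hCG, which triggers ovulation, both labelled Setd2_Con or Setd2_KO. The protocol gives an age of 8 weeks for the females behind all groups other than P7. The 48 h embryos, also Setd2_Con or Setd2_KO, are labelled 2-cell in controls and 1-cell in knockouts, so genotype and cell number cannot be told apart there, and what their 48 h count from is not given in the sources used here. The 8-cell embryos, labelled Setd2+/- or Setd2-/-, were built by moving the spindle and chromosomes of one oocyte into the emptied cytoplasm of another and injecting a sperm. The protocol describes this transfer in both directions between control and Setd2mNull oocytes, and the labels do not say which of the 2 parts was mutant. Each of these 10 groups had 2 libraries. A further pair of full-grown oocytes, labelled Dnmt3l_Con and Dnmt3l_KO and taken at the same 48 h after PMSG, had 1 library each. The promoter or Cre line behind each deletion, the strain and the number of cells per library are not given in the sources used here.

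Within the follicle, the oocyte secretes GDF9 and BMP15, which act through type 1 and type 2 receptor kinases and SMAD proteins on granulosa cells, and FGF8, which acts with them on cumulus cell metabolism. Granulosa cells in turn expose KIT ligand to the KIT receptor of the growing oocyte, pass small molecules through gap junctions built from the connexins GJA4 on the oocyte side and GJA1 between granulosa cells, and make the peptide NPPC, whose receptor NPR2 supplies the cGMP that holds the oocyte in meiotic arrest. In this scheme Gdf9, Bmp15, Bmp6, Fgf8, Kit and Gja4 are the oocyte's transcripts, and Kitl, Gja1, Npr2 and Nppc are mainly those of the somatic cells.

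In control full-grown oocytes of the Setd2 set the 6 oocyte transcripts had mean levels from 26.3 FPKM (Bmp6) to 4897 FPKM (Gdf9), and the 4 somatic ones from 0.0840 FPKM (Nppc) to 1.33 FPKM (Gja1). This order did not hold everywhere (the map of levels by library): at P7 Fgf8 was listed at 0, in the Dnmt3l control oocytes Gja1 was above Kit and Bmp6, and in 48 h controls and 8-cell embryos it was above most or all of the oocyte transcripts. Gdf9 was the 6th and the 2nd most abundant of all transcripts in the 2 control libraries. Npr2 never reached 1 FPKM in any of the 22 libraries: its highest value was 0.688 FPKM, and it was listed at 0 in 10 of them, so it could be tested nowhere.

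**Figure D1:**
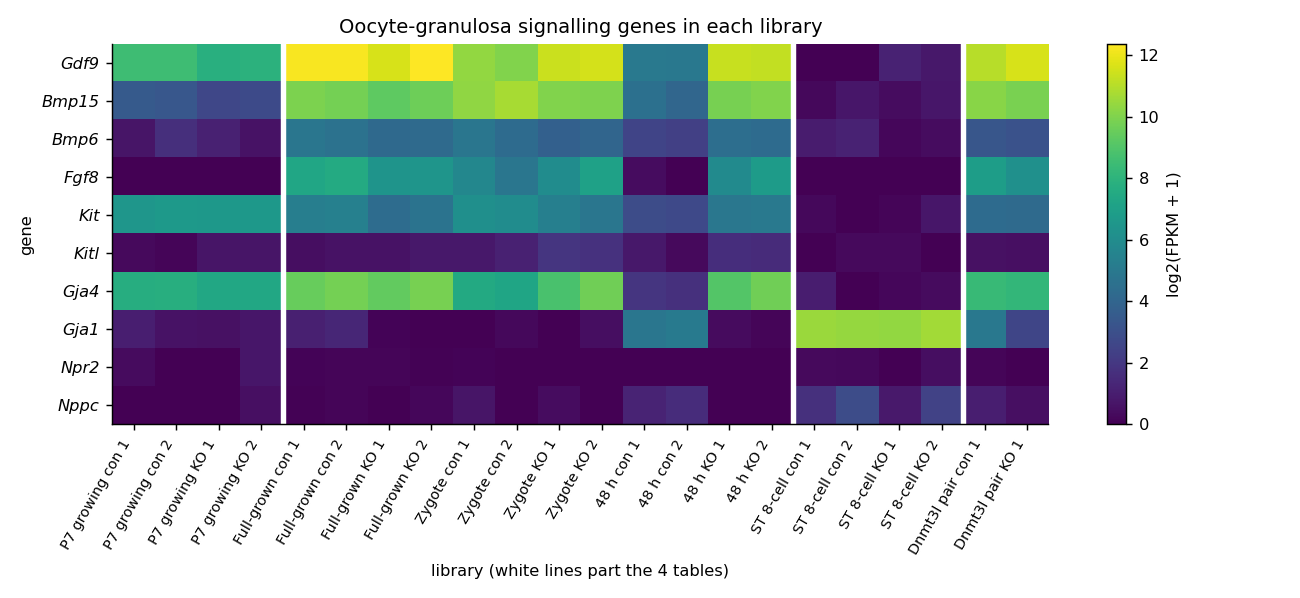
Level of each of the 10 genes (rows) in each of the 22 libraries (columns), as log2(FPKM + 1) on a colour scale; white lines separate the 4 tables, which were normalized separately. Gdf9, Bmp15 and Gja4 are bright in full-grown oocytes and zygotes and stay bright in the 48 h knockout libraries. They are darker in the 48 h controls, where Gja1 has a level like that of Gdf9 (means of 30.0 and 30.6 FPKM). In 8-cell embryos the 3 are dark and Gja1 is bright.

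Of the libraries as a whole, the estimated depth was 3.16 to 21.9 M fragments, lowest in zygotes and highest in full-grown oocytes, and 8999 to 10554 genes reached 1 FPKM. At 3.16 M fragments values under 1 FPKM rest on few fragments. Setd2 itself was 4.35 and 4.75 FPKM in control full-grown oocytes and 0.927 and 0.968 FPKM in the knockout, and it was lower in the knockout in zygotes and at 48 h too. At P7 it was 4.33 and 6.68 FPKM against 3.67 and 3.21 FPKM (adjusted p = 0.799), and in the 8-cell embryos 18.2 and 17.1 against 15.4 and 18.1 FPKM (adjusted p = 0.934), so there the gene's level does not check the labels. Of 16 oocyte markers, 15 or 16 reached 1 FPKM in every oocyte library, while of 24 granulosa cell markers 2 to 10 did.

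Promoter sequences are shown for 3 members that stood for the opposite courses described below: Bmp15 and Gja4, which fell in control embryos between the zygote and 48 h, and Gja1, which rose there. RefSeq promoters of GRCm38.p6 matched 8 of the 10 symbols, and the 250 bases before the annotated gene start were searched on both strands for short motifs: an E-box (CANNTG), bound by helix-loop-helix factors such as FIGLA; the TATA box of core promoters (TATAAA); the GC box of SP1 and its relatives (GGGCGG); and 2 cores bound by homeodomain factors such as NOBOX, which read TAATTG or, in the other form searched here, TAATTA. The sequences run 5′ to 3′ on the gene's strand, and capitals mark a match on either strand. The Bmp15 promoter lies at chrX:6320725-6320974 (minus strand), that of Gja4 at chr4:127314040-127314289 (minus strand) and that of Gja1 at chr10:56377050-56377299 (plus strand).

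Bmp15: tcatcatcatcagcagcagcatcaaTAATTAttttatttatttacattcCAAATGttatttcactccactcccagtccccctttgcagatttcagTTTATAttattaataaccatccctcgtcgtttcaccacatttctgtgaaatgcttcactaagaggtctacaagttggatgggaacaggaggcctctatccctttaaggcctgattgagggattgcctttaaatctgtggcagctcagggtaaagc

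Gja4: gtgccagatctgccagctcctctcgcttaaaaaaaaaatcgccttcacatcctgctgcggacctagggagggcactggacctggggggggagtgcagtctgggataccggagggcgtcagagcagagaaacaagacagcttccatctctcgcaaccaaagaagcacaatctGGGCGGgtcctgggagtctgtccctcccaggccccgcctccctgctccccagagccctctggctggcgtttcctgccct

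Gja1: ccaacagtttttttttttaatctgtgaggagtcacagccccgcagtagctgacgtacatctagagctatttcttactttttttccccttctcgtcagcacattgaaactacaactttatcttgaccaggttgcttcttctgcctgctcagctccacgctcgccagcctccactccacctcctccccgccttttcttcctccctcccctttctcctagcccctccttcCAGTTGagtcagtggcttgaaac

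In the Bmp15 window the TAATTA core began 225 bases before the gene start, an E-box 201 and a TATA box 155 bases before it. It was the only one of the 8 promoters with TAATTA, which 4.84% of all 32851 promoters of this length hold, and none of the 8 held TAATTG (7.17% of all). The Gja4 window held a GC box 79 bases before the start, as did 5 of the 8 members' windows and 32.7% of all promoters. In the Gja1 window the match was an E-box 23 bases before the start. E-boxes were found in 4 of the 8 and in 66.2% of all promoters, and TATA boxes in 3 of the 8 and in 12.4% of all. The matches do not overlap one another in these 3 windows. G and C made up 40.4% of the Bmp15, 61.2% of the Gja4 and 50.0% of the Gja1 window, against a median of 52.4% over all promoters. Of these 3, only the Gja4 start was also found near the opening of a transcript in a second annotation. The distances in the Bmp15 and Gja1 windows are therefore to the RefSeq start only. A match here is a run of letters and not a bound site.

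Differences between groups are given as log2 changes of FPKM + 1, relative to the median change of all genes tested in the same comparison, with the standard error and limma's adjusted p over all those genes. The median change itself, knockout against control, was -0.04 at P7, -0.19 for full-grown oocytes, 0.01 for zygotes, 0.43 at 48 h and -0.07 for 8-cell embryos. A gene was tested where it reached 1 FPKM in at least 2 libraries of its table. Nothing was tested between tables. Where the libraries of 2 groups are said to overlap or not, the share of all genes that did the same was not counted. Such statements are descriptions, since an exact permutation p of 2 libraries against 2 cannot fall below 0.33.

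Gdf9, the growth factor without which follicles stop at the primary stage, was the most abundant member in oocytes of both genotypes. In growing oocytes it was 367 and 373 FPKM in controls and 222 and 243 FPKM in knockouts. In full-grown oocytes it was 4918 and 4876 FPKM against 3132 and 5288 FPKM. The 2 groups did not overlap at P7 and overlapped in full-grown oocytes. Against its median the P7 change was -0.63 ± 0.13 (SE, adjusted p = 0.146), and that of full-grown oocytes -0.08 ± 0.24 (adjusted p = 0.546), so neither passed.

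After fertilization the Gdf9 transcript fell in controls, while its change in knockouts did not pass the test (-0.61 ± 0.24, adjusted p = 0.162). That knockout change was -0.92 without knockout oocyte library 1 and -0.32 without library 2, neither called, and rescaling the libraries by median ratios called it (-0.74, adjusted p = 0.0359). Control zygotes held 1336 and 1035 FPKM, 24.2% of the mean of control oocytes, and knockout zygotes 2651 and 3031 FPKM, 67.5% of the knockout oocytes' mean. In control embryos at 48 h 30.7 and 30.5 FPKM were left, against 2552 and 2406 FPKM in the knockout. Each knockout library was above each control at both times. Gdf9 was higher in knockout zygotes by 1.25 ± 0.24 (adjusted p = 0.00341) and at 48 h by 5.86 ± 0.24 (adjusted p = 4.77e-09), an 81.0-fold difference of the means.

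Bmp15, the oocyte's partner of GDF9, was far below it in growing oocytes, with 10.2 and 9.37 FPKM in controls and 5.29 and 5.88 FPKM in knockouts (-0.67 ± 0.33, adjusted p = 0.627). Full-grown oocytes held 989 and 888 FPKM in controls and 622 and 806 FPKM in knockouts (-0.21 ± 0.23, adjusted p = 0.304). The knockout libraries were below the controls at both stages, but neither difference passed the test. Control zygotes held more Bmp15 than control oocytes, 1294 and 1711 FPKM, a rise of 0.73 ± 0.23 (adjusted p = 0.0348), and knockout zygotes 1036 and 998 FPKM (zygote difference -0.56 ± 0.23, adjusted p = 0.0871). The rise in controls was called in 4 of 9 alternative fits, and not without control oocyte library 1 (adjusted p = 0.0827) or 2 (0.165) or control zygote library 2 (0.215). At 48 h the control level was 22.9 and 16.1 FPKM and the knockout level 899 and 1038 FPKM, a difference of 5.15 ± 0.23 (adjusted p = 6.27e-09).

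The ratio of Gdf9 to Bmp15 set these courses side by side (the plot of the ratio by group). In growing oocytes it was 36.1 and 39.8 in controls and 41.9 and 41.3 in knockouts. It was 4.97 and 5.49 against 5.03 and 6.56 in full-grown oocytes, and there the genotypes overlapped. In zygotes it was 1.03 and 0.605 in controls and 2.56 and 3.04 in knockouts, and at 48 h 1.34 and 1.89 against 2.84 and 2.32. The knockout libraries were above the controls at P7 and at both embryonic times. An exact two-sided permutation test of 2 libraries against 2 cannot give a p below 0.33, so no such test was made of the ratio.

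**Figure D2:**
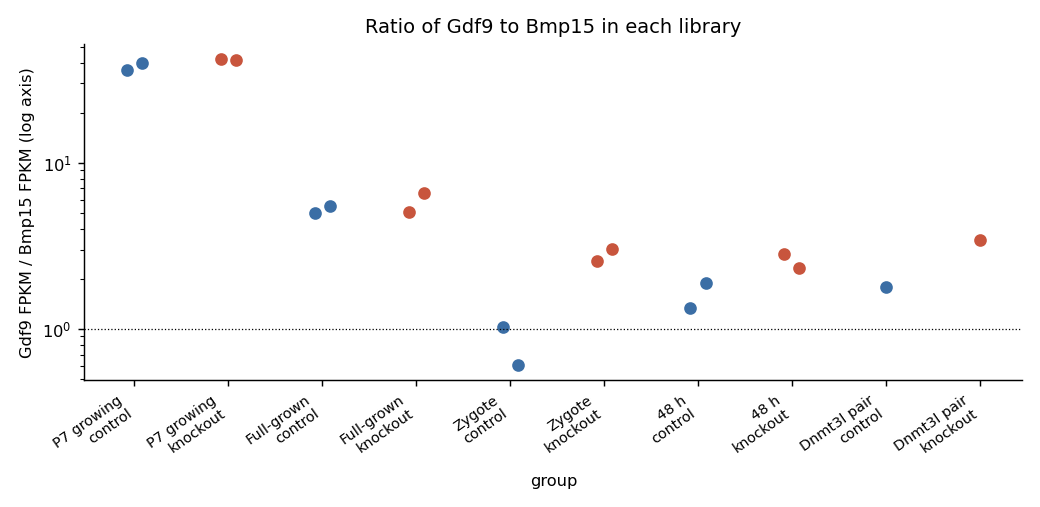
Ratio of the FPKM of Gdf9 to that of Bmp15 in each library (log axis), by group, blue for control and red for knockout; each point is 1 library and the dotted line marks equal levels. The ratio lies between 36.1 and 41.9 at P7 and near or below 1 only in control zygotes; 8-cell embryos are left out because Gdf9 was listed at 0 in their controls.

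Bmp6, a further ligand of the same family made by the oocyte, had much lower levels than Gdf9 and Bmp15. It was 0.602 and 2.14 FPKM in P7 controls and 1.2 and 0.539 FPKM in P7 knockouts, which overlapped (-0.24 ± 0.55, adjusted p = 0.954). Full-grown oocytes held 28.2 and 24.4 FPKM in controls and 17.7 and 18.5 FPKM in knockouts (-0.33 ± 0.23, adjusted p = 0.201). Zygotes held 27.9 and 19.2 against 13.0 and 15.2 FPKM, with the knockouts lower by -0.70 ± 0.23 on the log2 scale (adjusted p = 0.0445). That call held in 4 of 9 alternative fits and was lost without control zygote library 1 (adjusted p = 0.256) or knockout zygote library 1 (0.134) or 2 (0.0732). At 48 h the order had turned, with 4.89 and 4.08 FPKM in controls and 21.2 and 18.9 FPKM in knockouts (1.51 ± 0.23, adjusted p = 1.80e-05).

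Fgf8, the fibroblast growth factor of the oocyte, was listed at 0 in every P7 and every 8-cell library, and so was not tested there. In full-grown oocytes it was 159 and 186 FPKM in controls and 84.8 and 86.0 FPKM in knockouts. All knockout values were below the controls, but the change of -0.81 ± 0.39 did not pass (adjusted p = 0.148). In zygotes the genotypes stood the other way, with 51.1 and 27.6 FPKM in controls and 64.6 and 132 FPKM in knockouts (1.26 ± 0.39, adjusted p = 0.0307). The zygote call held in 4 of 9 alternative fits, and not without control zygote library 2 (0.84, adjusted p = 0.201) or knockout zygote library 2 (0.76, adjusted p = 0.222). At 48 h Fgf8 was 0.344 FPKM in 1 control and listed at 0 in the other, and 59.4 and 109 FPKM in knockouts (5.71 ± 0.39, adjusted p = 1.35e-07).

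Kit, the receptor through which granulosa cells act on oocyte growth, had its highest level at P7, with 89.5 and 103 FPKM in controls and 94.6 and 97.1 FPKM in knockouts. The knockouts lay between the controls, and the change was 0.04 ± 0.16 (adjusted p = 0.997), with a 95% interval from -0.32 to 0.39. In full-grown oocytes it was 37.9 and 40.9 FPKM in controls and 19.8 and 25.2 FPKM in knockouts, a change of -0.60 ± 0.22 that missed the threshold (adjusted p = 0.0541). In zygotes the controls held 70.7 and 63.0 FPKM and the knockouts 38.9 and 28.0 FPKM. Kit was lower in knockout zygotes, by -1.01 ± 0.22 on the log2 scale (adjusted p = 0.00674). At 48 h it was higher in the knockout, 29.0 and 30.8 FPKM against 6.28 and 5.68 FPKM (1.72 ± 0.22, adjusted p = 5.02e-06).

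Kitl, the ligand of KIT and mainly a granulosa cell transcript, stayed below 1 FPKM in 17 of 22 libraries. The other 5 were 1 control zygote library, at 1.22 FPKM, both knockout zygotes, at 2.71 and 2.42 FPKM, and both 48 h knockouts, at 2.06 and 1.87 FPKM. Kitl was higher in knockout than in control zygotes (0.84 ± 0.23, adjusted p = 0.0160) and at 48 h (0.59 ± 0.23, adjusted p = 0.00172). It passed the filter only because of the knockout zygotes and 48 h knockouts, the groups in which it was high, so its changes are given as a description. The zygote call held in 5 of 9 alternative fits, and was lost without control zygote library 1 (adjusted p = 0.0961) or knockout zygote library 1 (0.0535) and with a pseudocount of 0.1 FPKM (1.31, adjusted p = 0.0803). The 48 h change was called throughout, but its size was not stable: 0.20 without control library 2 (adjusted p = 0.0488) and 1.35 with the smaller pseudocount. In knockouts Kitl also rose from the oocyte to the zygote, by 1.06 ± 0.23 (adjusted p = 0.00862), from 0.502 and 0.713 FPKM; without knockout oocyte library 1 the adjusted p was 0.0887 and without knockout zygote library 1 it was 0.0535. Levels this low rest on few fragments at the depth of these libraries.

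Gja4, the connexin that the oocyte contributes to its gap junctions with granulosa cells, separated the genotypes after fertilization, as Gdf9 did. It was 210 and 214 FPKM in P7 controls and 168 and 171 FPKM in P7 knockouts (-0.28 ± 0.14, adjusted p = 0.590). Full-grown oocytes held 718 and 889 FPKM in controls and 666 and 911 FPKM in knockouts, which overlapped (0.15 ± 0.30, adjusted p = 0.970). Control zygotes held 183 and 156 FPKM, 21.1% of the control oocytes' mean, and knockout zygotes 456 and 815 FPKM. The zygotes differed by 1.83 ± 0.30 (adjusted p = 0.00146). At 48 h controls held 2.80 and 2.23 FPKM and knockouts 536 and 815 FPKM, a 268-fold difference of the means (7.13 ± 0.30, adjusted p = 5.58e-09). On the log2(FPKM + 1) scale this was the largest change of any member; with a pseudocount of 0.1 FPKM that of Fgf8 was larger (7.95 against 7.35).

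Gja1, the connexin that joins granulosa cells to one another and is also made by cleaving embryos, took the opposite course. In controls it was 0.200 FPKM in 1 zygote library and listed at 0 in the other, and 28.0 and 31.9 FPKM at 48 h (a rise of 5.16 ± 0.23, adjusted p = 1.40e-08). The 1-cell knockouts of 48 h held 0.266 and 0.130 FPKM, and the difference between the genotypes was -5.12 ± 0.23 (adjusted p = 1.84e-08). In 8-cell embryos Gja1 was by far the most abundant member, with 1446 and 1359 FPKM in controls and 1339 and 1622 FPKM in knockouts. There the genotypes overlapped and the change was 0.15 ± 0.17 (adjusted p = 0.901), with a 95% interval from -0.26 to 0.55. Gja1 entered the test in the table of oocytes, zygotes and 48 h embryos only through control oocytes and 48 h controls, the groups in which it was highest. With no filter on low values its 48 h difference had an adjusted p of 1.06e-06.

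Gja1 was also the only member to pass the test in full-grown oocytes. Its level was low in both groups, 1.15 and 1.5 FPKM in controls and 0.105 and 0.0249 FPKM in knockouts, a change of -0.94 ± 0.23 (adjusted p = 0.0201). The call was lost when any 1 of the 4 libraries was left out, with adjusted p from 0.0886 without control library 1 to 0.178 without control library 2 (0.139 without knockout library 1, 0.102 without knockout library 2), and with a pseudocount of 0.1 FPKM (0.0501). The change itself was -0.81 to -1.06 without a library and -2.88 with the smaller pseudocount, and with no filter on low values its adjusted p was 0.0413.

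Of 24 markers of granulosa cells 8 could be tested in these oocytes: 1 was higher and 2 were lower in the knockout, 5 did not pass, and their median change was 0.23 (the plot of Gja1 and granulosa cell markers). Of the 24, 6 reached 1 FPKM in both controls and 4 in both knockouts, and their summed level was 93.6 and 96.2 FPKM in controls against 118 and 130 FPKM in knockouts. Inha, the inhibin alpha subunit, was 14.8 to 15.1 FPKM in controls and 0.519 to 0.816 FPKM in knockouts (-3.08 ± 0.18, adjusted p = 1.50e-05). Cyp11a1, the first enzyme of steroid synthesis, was 2.37 to 3.20 against 0.293 to 0.323 FPKM (-1.33 ± 0.19, adjusted p = 0.00298). Fshr, the receptor for follicle-stimulating hormone, stood the other way, at 0.180 to 0.415 FPKM in controls and 8.25 to 9.49 FPKM in knockouts (3.12 ± 0.34, adjusted p = 0.00171). The defining markers Foxl2 and Amh were at most 0.0670 FPKM in controls and listed at 0 in knockouts. In these bulk libraries fewer granulosa cells, less RNA per cell and a change in transcripts of the oocyte itself cannot be told apart. The part of granulosa cells in the Gja1 difference was not tested.

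**Figure D3:**
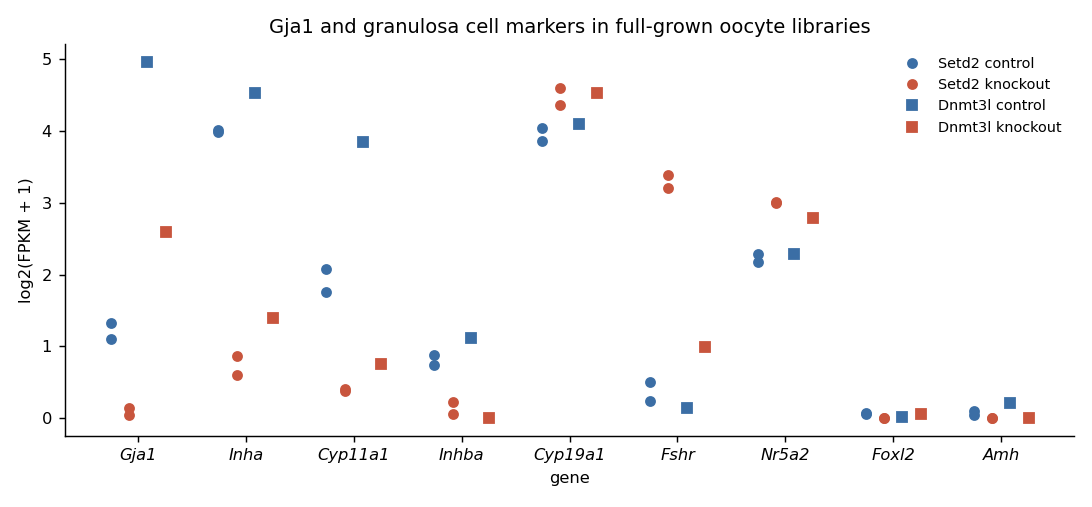
Gja1 and 8 granulosa cell markers in full-grown oocyte libraries, as log2(FPKM + 1); circles are the 4 Setd2 libraries and squares the 2 libraries of the Dnmt3l pair, blue for control and red for knockout. Gja1, Inha and Cyp11a1 are higher in the controls of both sets, Fshr is higher in the knockouts, and Foxl2 and Amh lie near 0 throughout.

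Nppc, the granulosa cell peptide of meiotic arrest, was below 1 FPKM in all oocyte and zygote libraries of the Setd2 groups. It was 1.32 and 1.97 FPKM in controls at 48 h and listed at 0 in both knockouts. In its table it reached 1 FPKM only in those 2 controls, so it passed the filter only through the group in which it was high and was not tested without either of them. Its change of -1.82 ± 0.24 (adjusted p = 0.000283) is therefore given as a description. With no filter on low values the adjusted p was 0.00135, and with a pseudocount of 0.1 FPKM the change was -4.73. In 8-cell embryos it was 2.26 and 6.41 FPKM in controls and 0.791 and 4.40 FPKM in knockouts, which overlapped (-0.59 ± 0.63, adjusted p = 0.692).

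Read by stage, no member passed in growing oocytes. Of the 10 members 5 could be tested there and 0 were called, where limma called 0.0741% of all 10794 genes tested as higher in the knockout and 0.00926% as lower. Without adjustment 2 of the 5, Gdf9 and Gja4, and 868 of all genes had a p under 0.05. Both, and Bmp15 as well, were lower in both knockout libraries than in either control. The share of all genes that separated in this way was not counted.

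In full-grown oocytes 9 members were tested, 0 were called higher, against 2.02% of all genes, and 1 lower, Gja1, against 4.89% of all genes. Gja1 entered the test through the filter described above. When limma was fitted on the 2 full-grown oocyte groups alone, Fgf8 (adjusted p = 0.00630) and Kit (0.0201) were called lower as well. All genes called were then 2787. The median change of the 9 was -0.21 relative to the median of all 12199 genes. The number of all genes called rests on every library: 844 were called with all 4, and 43 to 145 with any 1 left out.

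In zygotes the members split. Gdf9, Fgf8, Kitl and Gja4 were higher in the knockout, 4 of 9 against 18.5% of all genes, and Bmp6 and Kit were lower, 2 of 9 against 13.1%. Kitl entered this count through the filter described above. The calls of Gdf9, Gja4 and Kit stood in all 9 alternative fits. The summed level of the 16 oocyte markers differed the same way as that of Gdf9 and Gja4, with 16540.0 and 15563.0 FPKM in control and 22461.0 and 23000.5 FPKM in knockout zygotes. Of 15 oocyte markers tested 7 were higher and 1 was lower in the knockout, among them Zp3, a protein of the egg coat, with 163 ± 4.91 FPKM in controls and 1819 ± 1012 in knockouts (SD, n = 2; 3.34 ± 0.32 on the log2 scale, adjusted p = 8.35e-05). The part of this wider difference in those of the members was not tested.

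At 48 h all 9 tested members were called, Nppc, Kitl and Gja1 through the filter described above. Gdf9, Bmp15, Bmp6, Fgf8, Kit, Kitl and Gja4 were higher in the knockout, 7 of 9 against 43.2% of all genes, and Gja1 and Nppc were lower, 2 of 9 against 30.6%. The 8 other than Nppc kept their call in all 9 alternative fits. Here 8997 of all 12199 genes were called between the 2-cell controls and the 1-cell knockouts, so a call by itself sets a gene little apart. The summed oocyte markers were 5862.0 and 6076.6 FPKM in controls and 26241.1 and 21066.0 FPKM in knockouts, and 14 of 15 tested were higher in the knockout. Nobox, a transcription factor of the oocyte, was 4.23 ± 0.0368 FPKM in controls and 379 ± 47.7 in knockouts (SD, n = 2; 5.75 ± 0.20 on the log2 scale, adjusted p = 1.81e-09).

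**Figure D4:**
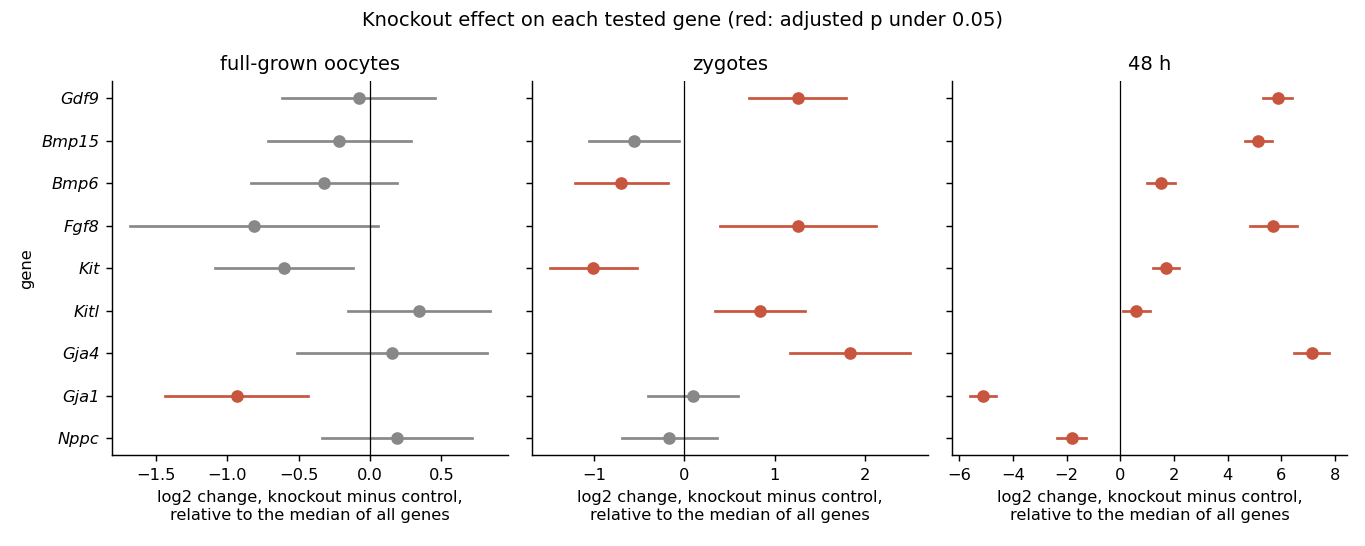
Knockout effect on each tested member in full-grown oocytes, zygotes and 48 h embryos, as log2 change of FPKM + 1 relative to the median change of all genes; points are estimates, bars 95% intervals, red marks an adjusted p under 0.05, and the 3 panels have different scales. Only Gja1 is red in full-grown oocytes (-0.94), 6 members are red in zygotes, and at 48 h all 9 are red, from -5.12 for Gja1 to 7.13 for Gja4.

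In 8-cell embryos of spindle transfer 2 members, Gja1 and Nppc, could be tested, neither passed, and limma called 0% of all 9398 genes as higher and 0% as lower. Without adjustment 0 of the 2 members and 1243 of all genes had a p under 0.05. Gdf9 was listed at 0 in both controls and was 1.24 and 0.739 FPKM in the knockout libraries. Bmp15 lay between 0.207 and 0.676 FPKM in all 4 libraries, and Gja4 between 0 and 0.959 FPKM.

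The same values were compared as changes over time within a genotype (the plot of levels by stage). From the full-grown oocyte to the zygote, Gdf9 fell by 2.00 on the log2 scale in controls (SE 0.24, adjusted p = 0.000130), Fgf8 fell by 2.10 (0.39, adjusted p = 0.00155), Gja4 fell by 2.18 (0.30, adjusted p = 0.000272) and Gja1 fell by 1.02 (0.23, adjusted p = 0.00339). These are 4 of 9 members, where 24.0% of all genes fell. Gja1 fell from 1.15 and 1.5 FPKM to at most 0.200 FPKM, and entered the test only through control oocytes and 48 h controls. Bmp15 and Kit rose, 2 of 9 where 18.5% of all genes did. The rise of Kit, 0.80 ± 0.22 (adjusted p = 0.0184), was not called without control oocyte library 1 (adjusted p = 0.101) or 2 (0.0687) or control zygote library 1 (0.0899). In knockouts the one member to pass over this step was Kitl, which rose, 1 of 9 where 12.6% of all genes did, and 0 of 9 fell where 5.10% of all genes did. Kitl was tested only because it was high in knockout zygotes and 48 h knockouts.

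From the zygote to 48 h, 6 of 9 members fell in controls, where 42.7% of all genes did. Bmp15 fell by 5.86 (SE 0.23), Gja4 fell by 5.26 (0.30), Gdf9 fell by 4.88 (0.24), Fgf8 fell by 4.72 (0.39), Kit fell by 2.94 (0.22) and Bmp6 fell by 1.81 (0.23), with adjusted p of at most 6.65e-06. Gja1 rose and Nppc was called higher, 2 of 9 where 33.4% of all genes were, with Nppc tested only because it was high in these 48 h controls. In knockouts 0 of 9 rose and 0 of 9 fell by limma's adjusted p, where 0.139% of all genes rose and 0.0656% fell, and none of the 9 had an unadjusted p under 0.05, against 1240 of all genes. For the knockout the 95% interval of the change was -0.75 to 0.32 for Gdf9, -0.59 to 0.41 for Bmp15 and -0.57 to 0.76 for Gja4. The 2 steps share the zygote libraries, so their changes are not independent of each other.

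**Figure D5:**
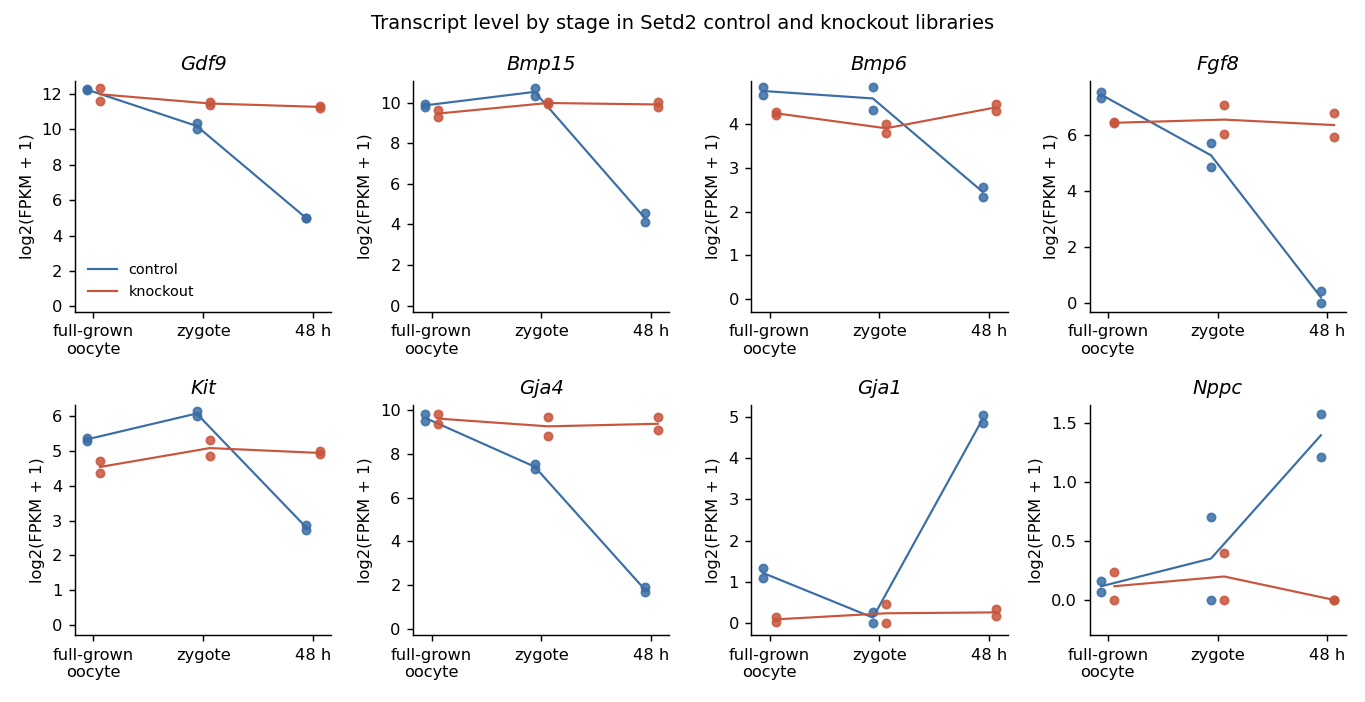
Level of 8 of the 10 genes as log2(FPKM + 1) in full-grown oocytes, zygotes and 48 h libraries, blue for control and red for knockout; points are libraries, lines join group means and each panel has its own scale. Control lines of Gdf9, Bmp15, Bmp6, Fgf8, Kit and Gja4 drop to their lowest at 48 h and those of Gja1 and Nppc rise, while the knockout lines stay nearer their oocyte level.

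The difference between the genotypes in these changes was tested directly. Over the first step it passed for Gdf9 (1.34 ± 0.34, adjusted p = 0.0200), Fgf8 (2.08 ± 0.56, adjusted p = 0.0288), Gja4 (1.69 ± 0.43, adjusted p = 0.0208) and Gja1 (1.03 ± 0.32, adjusted p = 0.0376), all more positive in the knockout, 4 of 9 against 8.29% of all genes, and 0 of 9 were more negative, against 1.10%. Gja1 entered the test only through control oocytes and 48 h controls. Its difference rests on control oocytes at 1.15 and 1.5 FPKM, with knockout oocytes at 0.105 and 0.0249 FPKM and no zygote library above 0.388 FPKM, so it is given as a description. Over 13 alternative fits, 8 of them without 1 library, Gdf9 and Gja4 were called in 8, Fgf8 in 4 and Gja1 in 1, with all signs kept and highest adjusted p of 0.0809, 0.103, 0.149 and 0.165. None of the 4 passed without control oocyte library 2 (adjusted p = 0.0789 for Gdf9, 0.0991 for Gja4, 0.119 for Fgf8 and 0.165 for Gja1), without knockout oocyte library 1 (0.0809, 0.103, 0.104 and 0.116) or without control zygote library 2 (0.0754, 0.0720, 0.0960 and 0.0543). Gdf9, Fgf8 and Gja1 were not called without control oocyte library 1 (0.0639, 0.0684 and 0.0753), nor Fgf8, Gja1 and Gja4 without knockout zygote library 2 (0.0935, 0.127 and 0.0531). Fgf8 and Gja1 were not called without knockout oocyte library 2 (0.0713 and 0.108), nor Gja1 without control zygote library 1 (0.0972).

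Over the second step the difference passed for 8 of 9 members. Gdf9, Bmp15, Bmp6, Fgf8, Kit and Gja4 changed more positively in the knockout, 6 of 9 against 36.7% of all genes, by 2.26 (Bmp6) to 5.77 (Bmp15). Gja1 (-5.16 ± 0.32) and Nppc (-1.60 ± 0.34, under the same filter) changed more negatively, 2 of 9 against 29.5%. For the 7 other than Nppc each call stood in all 13 alternative fits; the adjusted p of Nppc was 0.00722, and 0.0171 with no filter on low values. Kitl was the member that did not pass, at -0.19 ± 0.32 (adjusted p = 0.657).

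Levels across the growth of the oocyte can only be set side by side, since the tables were normalized separately. Mean Gdf9 was 370 ± 3.99 FPKM in P7 controls and 4897 ± 29.5 in full-grown controls (SD, n = 2). Mean Bmp15 was 9.77 ± 0.571 and 938 ± 71.4 FPKM, a larger ratio. Gja4 was 212 ± 2.64 and 803 ± 121 FPKM, and Kit, the other way, 96.5 ± 9.81 and 39.4 ± 2.14 FPKM. Ranked by mean over the 12 groups, Gdf9 ran from the Setd2 full-grown oocytes, whose 2 groups overlapped, through knockout zygotes and 48 h knockouts to control zygotes, P7, 48 h controls and 8-cell embryos, with the Dnmt3l pair on either side of the knockout embryos. Bmp15 had its highest mean in control zygotes, 1503 ± 295 FPKM, above all other groups; of those below it, the 48 h knockouts overlapped both the knockout zygotes and the control full-grown oocytes. Gja4 was highest in the oocyte and embryo groups of 635 to 803 FPKM (control and knockout full-grown oocytes, 48 h knockouts and knockout zygotes), which did not differ beyond their spread.

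The genes whose course over the 12 libraries of oocytes, zygotes and 48 h embryos was most like a member's were found by Pearson's r of log2(FPKM + 1) among 6961 genes whose mean reached 5 FPKM. The closest were Apeh (r = 0.997), Nobox and Fam46c for Gdf9, Nlrp4f (0.995), Pkd2l2 and Nlrp4a for Bmp15, and Rdh11 (0.997), Nkd1 and Fam46c for Gja4. They were Pmf1 (0.988), Mtcp1 and Zkscan17 for Bmp6, Fut11 (0.994), Dbndd1 and Mapk3 for Fgf8, and Gng12 (0.989), Lrig1 and Serpinb1c for Kit. The points share 6 groups and the contrast between 48 h controls and the rest, and 9.84% to 19.0% of the 6961 genes had r over 0.9 with a given member, so this is a description only. Among the members r was 0.992 between Gdf9 and Gja4 and 0.765 between Gdf9 and Kit.

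The pathways that receive or relay these signals were followed through 5 lists. Their counts stand against the shares of all genes called higher and lower in the knockout, 2.02% and 4.89% in full-grown oocytes, 18.5% and 13.1% for zygotes, and 43.2% and 30.6% at 48 h. Many of the counts are near or below these shares. Of 26 genes of TGF-beta family signals, mostly receptors and SMADs but also others such as Id3, 19 were tested in each comparison of this table. In full-grown oocytes 1 was higher and 0 were lower in the knockout. The one was Id3, a target gene of BMP signals, with 10.9 ± 6.29 FPKM in controls and 66.6 ± 51.1 in knockouts (SD, n = 2; 2.56 ± 0.63, adjusted p = 0.0476). In zygotes 7 were higher and 1 was lower. The lower one was Smad1, which relays BMP signals, at 14.0 ± 2.00 against 3.73 ± 1.21 FPKM (-1.70 ± 0.28, adjusted p = 0.00161). Id3 was 1.46 ± 0.414 against 26.7 ± 4.71 FPKM in these zygotes (3.48 ± 0.63, adjusted p = 0.00250). At 48 h 11 were higher and 1 was lower, Smad7, the inhibitory SMAD, at 7.30 ± 0.375 FPKM in controls and 0.134 ± 0.125 in knockouts (-3.31 ± 0.17, adjusted p = 6.67e-08). The list's median change relative to all genes was 0.21, 0.07 and 0.81 at the 3 stages.

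Of 26 genes of the KIT, PI3K and mTOR pathway, which acts downstream of KIT, 24 were tested. In full-grown oocytes 0 were higher and 1 was lower, Pdpk1, the kinase that activates AKT, at 17.7 ± 6.02 FPKM in controls and 6.33 ± 1.51 in knockouts (-1.14 ± 0.32, adjusted p = 0.0339). In zygotes 2 were higher and 4 lower. Pdpk1 was 59.6 ± 2.70 against 26.3 ± 5.74 FPKM (-1.18 ± 0.32, adjusted p = 0.0182). At 48 h 7 of 24 were higher and 5 lower, both smaller shares than the 43.2% and 30.6% of all genes, with Foxo3, a transcription factor restrained by AKT, at 0.874 ± 0.508 against 12.3 ± 1.59 FPKM (2.41 ± 0.32, adjusted p = 1.10e-05). The list's median was -0.14, -0.26 and -0.44.

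Of 22 genes of FGF receptors and MAPK signalling 18 were tested. In full-grown oocytes 1 was higher and 0 lower: Dusp6, a phosphatase that restrains MAPK, at 0.464 ± 0.0749 FPKM in controls and 2.24 ± 1.03 in knockouts (1.30 ± 0.25, adjusted p = 0.0281). In zygotes 2 were higher and 3 lower. Fgfr2, a receptor for FGF ligands, was 3.54 ± 0.487 against 7.70 ± 0.510 FPKM (0.93 ± 0.28, adjusted p = 0.0256), and Spry4, a feedback inhibitor, was 216 ± 20.2 against 120 ± 10.8 FPKM (-0.85 ± 0.20, adjusted p = 0.0102). Its relative Spry2 went the other way and was higher in the knockout (1.41 ± 0.35, adjusted p = 0.0114). At 48 h 8 were higher and 6 lower, with Mapk3, the kinase ERK1, at 5.16 ± 0.681 against 149 ± 0.915 FPKM (4.18 ± 0.25, adjusted p = 3.68e-08). Sos1 was lower in the knockout (-4.09 ± 0.19, adjusted p = 2.62e-08). The list's median was 0.04, -0.02 and -0.11.

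Among 22 other genes of gap junctions, adhesion and transzonal projections, the granulosa cell processes that reach the oocyte, 16 were tested. In full-grown oocytes 0 were higher and 1 lower, Panx2, a pannexin channel, at 5.28 ± 1.80 FPKM in controls and 1.09 ± 0.175 in knockouts (-1.37 ± 0.23, adjusted p = 0.00570). In zygotes 2 were higher and 1 lower. Both higher ones were connexins: Gjb2, at 1.31 ± 0.171 against 5.64 ± 0.383 FPKM (1.51 ± 0.23, adjusted p = 0.000978), and Gja3, at 0.283 ± 0.0996 against 2.24 ± 0.876 FPKM (1.30 ± 0.27, adjusted p = 0.00473). At 48 h 10 were higher and 2 lower, with Cdh1, the adhesion protein E-cadherin, at 0.858 ± 0.377 against 23.4 ± 2.16 FPKM (3.30 ± 0.30, adjusted p = 7.32e-07). The list's median was 0.04, 0.06 and 0.79.

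Of 22 genes of the cGMP and cAMP control of meiotic arrest, the pathway that NPPC and NPR2 feed, 19 were tested. In full-grown oocytes 0 were higher and 1 lower, Pde3a, the phosphodiesterase that clears cAMP in the oocyte, at 5.95 ± 1.40 FPKM in controls and 2.30 ± 0.253 in knockouts (-0.87 ± 0.25, adjusted p = 0.0331). In zygotes 2 were higher and 5 lower, with Prkg2, a cGMP-dependent kinase, at 2.09 ± 0.889 against 0.151 ± 0.0368 FPKM (-1.41 ± 0.22, adjusted p = 0.00112). At 48 h 6 were higher and 4 lower. Impdh2, an enzyme of guanine nucleotide synthesis, was 58.9 ± 7.17 FPKM in controls and 0.905 ± 0.128 in knockouts (-5.40 ± 0.24, adjusted p = 1.70e-08), while Pde3a was 1.04 ± 0.294 against 15.7 ± 2.00 FPKM (2.61 ± 0.25, adjusted p = 1.04e-06). The list's median was 0.00, -0.19 and -0.15. At P7 and in 8-cell embryos no gene of these 5 lists passed.

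In the Dnmt3l pair, 1 library of each kind, no test is possible and folds are given as they stand. DNMT3L is a partner of DNA methyltransferases in the growing oocyte, and Dnmt3l itself was 31.7 FPKM in the control and 25.0 FPKM in the library labelled knockout, so its level does not check the labels. Gdf9 was 2095 FPKM in the control and 3175 FPKM in that library, Bmp15 1171 and 930 FPKM, and their ratio 1.79 and 3.41. Fgf8 was 116 and 72.8 FPKM, Gja4 319 and 288 FPKM, Kit 19.2 and 18.3 FPKM and Bmp6 8.78 and 7.75 FPKM. None of these was past 2-fold on the log2(FPKM + 1) scale. Nppc, at 1.05 and 0.434 FPKM, was not past it on that scale (-0.52) but was with a pseudocount of 0.1 FPKM (-1.11), and Kitl and Npr2 stayed below 1 FPKM in both. Gja1 was past 2-fold, at 30.2 FPKM in the control and 5.01 FPKM in the library labelled knockout, 6.04-fold lower there. It was 1 of 8 members compared as lower and 0 of 8 as higher, where 1.04% of all 9708 genes compared were past 2-fold lower and 0.906% higher. Of the granulosa cell markers, those lower in the Setd2 knockout oocytes were Inha, here 22.1 and 1.63 FPKM, and Cyp11a1, here 13.3 and 0.680 FPKM. Fshr, which was higher there, is given for this pair only in the plot of Gja1 and granulosa cell markers. The 24 markers summed to 105 and 69.7 FPKM, and 10 and 4 of them reached 1 FPKM. That sum includes Inha and Cyp11a1, so it does not show a fall of the other markers. Foxl2 was 0.00478 and 0.0385 FPKM and Amh 0.151 FPKM and 0. The part of granulosa cells in the Gja1 difference of this pair was not tested.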

How the data were processed

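RNA-seq libraries of mouse oocytes and embryos were assigned to 12 groups from their titles. The authors deposited FPKM values in 4 tables; per the submitters' processing notes TopHat2 2.0.11, Cufflinks 2.0.2 and mm9 were used, in roles not given in the sources used here. Smart-seq2 copies polyadenylated RNA, and FPKM is a share of a library, so neither gives molecules per cell. Both Dnmt3l columns carry the word merge and may combine runs.

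From the deposited FPKM, log2(FPKM + 1) was fitted in limma 3.58.1 (R 4.3.3) with a mean per group and a variance trend, for genes that reached 1 FPKM in 2 or more libraries: 10794 at P7, 12199 in the table of full-grown oocytes, zygotes and 48 h embryos (6 groups in 1 fit) and 9398 in 8-cell embryos. Two-sided p-values were adjusted by Benjamini-Hochberg over all genes tested and called at 0.05; changes are printed relative to the median change of those genes, while p is of the unshifted change. Nothing says that libraries came from separate animals, so p-values measure the spread between libraries, which may be technical. With 2 libraries against 2 an exact permutation p cannot fall below 0.33, so calls rely on variance shared between genes. In the Dnmt3l pair genes with 1 FPKM in the higher library were compared. Depth was estimated from the value of 1 fragment, read from low FPKM of genes with 1 transcript.

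The members, the lists and the rule for named genes were chosen with earlier results of these data known. The rule names all members, up to 3 called genes of each list and Setd2 contrast with the smallest adjusted p (not all are printed), and the 3 genes most correlated with each member of at least 10 FPKM in control full-grown oocytes. On simulated data with known changes the fit recovered 90.5% of 4-fold changes in full-grown oocytes, 73% at P7 and 52.5% in 8-cell embryos. The changed genes were drawn only from those above 10 FPKM in the controls. These shares therefore do not apply to members below that level, which in 8-cell embryos are all but Gja1. Alternatives were a pseudocount of 0.1 FPKM, no filter, median-ratio rescaling of libraries, the replicate number as a block, the compared groups alone, and each library left out in turn.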

Additional observations from a re-analysis of the deposited data

Results flagged for a closer look

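The change between stages differed between the genotypes, by a test of that difference in limma, for the members below; values are knockout change minus control change, log2, relative to the median of all genes. From the full-grown oocyte to the zygote it was 1.34 for Gdf9, 2.08 for Fgf8, 1.69 for Gja4 and 1.03 for Gja1, none of which was called in all 13 alternative fits. From the zygote to 48 h it was 4.66 for Gdf9, 5.77 for Bmp15, 2.26 for Bmp6, 4.5 for Fgf8, 2.78 for Kit and 5.35 for Gja4. Over that step it was -5.16 for Gja1 and -1.60 for Nppc. Both steps use the zygote libraries, the 48 h libraries are of 2-cell controls and 1-cell knockouts, and the start of those 48 h is not given in the sources used here. Nppc passed the filter only through the 48 h controls, and Gja1 only through control oocytes and 48 h controls.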

How the results depend on the processing

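All 9 changes at 48 h, those of Gdf9, Gja4 and Kit in zygotes, those of Gdf9, Fgf8, Gja4 and Gja1 from oocyte to zygote and all 8 from zygote to 48 h in controls, and the 8 differences over the latter step kept sign and call in each alternative fit that could test them; the other calls depend on single libraries or settings. For Nppc this says little, since the filter tests it only where both 48 h controls are kept. With a pseudocount of 0.1 FPKM called changes of low genes moved by over 1.5 times. Between genotypes these were Nppc (-4.73) and Kitl (1.35) at 48 h, Kitl in zygotes (1.31) and Gja1 in full-grown oocytes (-2.88). From oocyte to zygote they were Gja1 in controls (-2.90), Kitl in knockouts (1.80) and Gja1 in the difference over that step (3.18). From zygote to 48 h they were Gja1 (7.95) and Nppc (3.18) in controls, and Nppc in the difference (-4.26). In the Dnmt3l pair that pseudocount gave -2.57 for Gja1 and -1.11 for Nppc. A pseudocount of 0.1 FPKM left 0 members called in full-grown oocytes (1 in the reported fit; 489 of all genes, against 844) and 2 members (of 4) for the first difference between genotypes, that over the step from oocyte to zygote. Without a filter all genes called were 0 at P7 (9 in the reported fit), 500 in full-grown oocytes, 40 for knockouts from the zygote to 48 h (25 in the reported fit) and 603 for the first difference (1145), with 0 of 4 members. Rescaling by median ratios gave 2 members for knockouts from oocyte to zygote (1 in the reported fit, with Gdf9 at -0.74, adjusted p = 0.0359, added) and 12 genes for knockouts to 48 h. The compared groups alone gave 3 members in full-grown oocytes (Fgf8, adjusted p = 0.00630, and Kit, 0.0201, with Gja1) and 2787 genes, and 5 genes for knockouts to 48 h.

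Deviations from group means of libraries with the same replicate number correlated at 0.042 (P7), 0.186 (full-grown oocytes), 0.074 (zygotes), 0.002 (48 h) and 0.072 (8-cell embryos). With 2 pairs this shows no pairing beyond the number. The replicate block called 1 member at P7 (Gdf9, adjusted p = 0.00247) and 129 genes, 15 genes in 8-cell embryos, 4 genes for knockouts to 48 h and 2 members for the first difference; it also lost Bmp6 and Fgf8 in zygotes and Bmp15 from oocyte to zygote in controls.

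Without 1 library in turn the members called were 0 to 0 for full-grown oocytes, 4 to 5 for zygotes, 8 to 9 for 48 h embryos, 4 to 5 from oocyte to zygote in controls and 0 to 2 in knockouts, 7 to 8 from zygote to 48 h in controls, 0 to 4 for the first and 7 to 8 for the second difference. All genes called were then 5 to 16 at P7, 43 to 145 for full-grown oocytes, 2256 to 3935 for zygotes, 0 to 49 for 8-cell embryos, 3146 to 4322 and 313 to 2885 from oocyte to zygote in controls and knockouts, 11 to 172 from zygote to 48 h in knockouts and 320 to 1964 for the first difference.

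The sign turned for no called change. Outside the fits without 1 library it turned 8 times: with a pseudocount of 0.1 FPKM for Fgf8 (-0.00721) and Nppc (0.18) in knockouts from oocyte to zygote and Kitl in the second difference, that from zygote to 48 h (0.090); with rescaling for Gdf9 in full-grown oocytes (0.017), Fgf8 (-0.11) and Nppc (0.12) in knockouts and Kitl in the second difference (0.010); and with groups alone for Fgf8 in knockouts (-0.033). Without 1 library it turned 31 times in 20 uncalled changes, with ranges in the second difference, Kitl -0.62 to 0.0697; from oocyte to zygote in controls, Bmp6 -0.32 to 0.14, Nppc -0.00756 to 0.64; from oocyte to zygote in knockouts, Fgf8 -0.43 to 0.47, Gja1 -0.12 to 0.23, Nppc -0.27 to 0.25; at P7, Bmp6 -0.72 to 0.0309, Kit -0.0631 to 0.15; in full-grown oocytes, Gdf9 -0.39 to 0.23, Gja4 -0.00747 to 0.31; in 8-cell embryos, Gja1 -0.00132 to 0.29, Nppc -1.39 to 0.21; in zygotes, Gja1 -0.13 to 0.29, Nppc -0.51 to 0.14; from zygote to 48 h in controls, Kitl -0.36 to 0.33; from zygote to 48 h in knockouts, Fgf8 -0.68 to 0.25, Gja1 -0.19 to 0.19, Gja4 -0.28 to 0.47, Kit -0.44 to 0.12, Nppc -0.46 to 0.0266. The cause was not tested. Values under 1 FPKM, and so Npr2, Nppc and Kitl, are limited by depth.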
